A study of Mus musculus with 4 samples.

Results

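Ccl21a-high mTECs with Mgp and Gpx3 are medullary thymic epithelial cells (mTECs) in which RNA of the chemokine gene Ccl21a is abundant and RNA of Mgp, which encodes matrix Gla protein, and of Gpx3, which encodes a secreted glutathione peroxidase, is found as well. They were chosen by measured values. A member had at least 200 detected genes, at most 25% mitochondrial UMIs, at least 100 Ccl21a UMIs per 10000 and at least 1 UMI of both Mgp and Gpx3. It also had fewer than 3 detected genes among 6 progenitor genes (Gas1, Gpm6b, Prelp, Serpinf1, Dcn and Ackr4), at most 1 among 6 cycling genes (Pclaf, Birc5, Ube2c, Cdk1, Top2a and Mki67), and at most 2 UMIs over 5 T cell genes (Lck, Cd3e, Cd3d, Cd3g and Trbc2). The rule found 4709 of 28055 cells, here called members, and what it used is given below as a description only. No doublet caller was run: the limit on T cell genes takes out some doublets with thymocytes, and others stay in. CCL21 draws positively selected thymocytes that carry its receptor CCR7 from the cortex into the medulla, where mTECs present self antigens. RANK and CD40 are receptors of the TNF receptor family on mTECs that signal through NF-kB and are needed for the maturation of Aire-expressing mTECs. Interferons bind other receptors and act through STAT factors on a set of interferon-stimulated genes that is active in the thymic medulla also without infection.

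The study asked what RANK and CD40 signals do in adult thymic epithelium, by droplet-based single-cell RNA-seq of sorted EpCAM+ CD45- TER119- cells. Wild-type C57BL/6 mice and Cd40-/- mice received rat control IgG or the RANKL-neutralizing antibody OYC1 under the skin at 4 weeks of age, at 5 mg per kg, and were analysed 2 weeks later, at 6 weeks. The 4 groups are the wild-type pair WT-Control and WT-RANKL-Ab and the knockout pair Cd40-/- Control and Cd40-/- RANKL-Ab, each with 1 library of 3 pooled mice. No condition has a replicate, so that no difference between libraries was tested and a group cannot be told apart from its library. The libraries held 10590, 7446, 9118 and 2099 barcodes, in the order of the groups above, and 95607338, 48888745, 66755852 and 19175068 UMIs. After the limits on genes and mitochondrial UMIs, 10218, 7164, 8591 and 2082 cells were kept. Members had a median of 6297, 6647, 5704 and 7103 UMIs and of 2244, 2441, 2253 and 2493 genes per cell. Levels below are UMIs summed over the members of a library and scaled to 1000000 (CPM), and 95% intervals, exact Poisson for levels and exact binomial (Clopper-Pearson for shares) otherwise, cover counting error only. As a check of the genotype, Cd40 was at 33.9 CPM (31.003 to 37.1) in WT-Control against 18.8 CPM (16.3 to 21.6) in WT-RANKL-Ab, with 3.69 CPM (2.26 to 5.71) in Cd40-/- Control against 2.02 CPM (0.814 to 4.17) in Cd40-/- RANKL-Ab. The Cd40-/- libraries were low, and their few UMIs show that the symbol was not wholly absent from them.

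The libraries differed in the barcodes they shared and in genes with short transcripts. Kept cells of different libraries shared barcodes: 102 between WT-Control and WT-RANKL-Ab, 116 between WT-Control and Cd40-/- Control, 26 between WT-Control and Cd40-/- RANKL-Ab, 97 between WT-RANKL-Ab and Cd40-/- Control, 17 between WT-RANKL-Ab and Cd40-/- RANKL-Ab, and 205 between Cd40-/- Control and Cd40-/- RANKL-Ab. The last pair shared the most, although Cd40-/- RANKL-Ab is the smallest library, and no barcode of that pair was a member in both. In all, 49, 37, 36 and 18 members had a barcode also found in another library, and without such cells the share of members in Cd40-/- RANKL-Ab was 23.6%. Some genes with short transcripts formed a further pattern. Rps29, a small ribosomal protein gene whose longest annotated transcript has 461 bases, was at 3087, 1038, 1037 and 2517 CPM in members, and Rpl36 at 1748, 512, 396 and 1084 CPM. Both were high in WT-Control and Cd40-/- RANKL-Ab and low in WT-RANKL-Ab and Cd40-/- Control. Tuft cells, a chemosensory epithelial type taken as reference wherever at least 2 of its 5 markers were detected, had Rpl36 at 1609, 418, 423 and 906 CPM, and cells with over 10 UMIs of the T cell genes had it at 2058, 597, 517 and 1392 CPM, again high in WT-Control and Cd40-/- RANKL-Ab. Of 9720 genes, 6 were past a log2 ratio of 1 in members in all 4 ratios of WT-Control or Cd40-/- RANKL-Ab to WT-RANKL-Ab or Cd40-/- Control, and 0 the other way. Among them, Cox17 (a copper chaperone of the respiratory chain) has a longest transcript of 3690 bases, so that length does not describe every such gene. By the same count, 6 genes were higher and 8 lower in both wild-type libraries than in both Cd40-/- libraries. For both control IgG libraries against both antibody libraries it was 28 and 2. In members, the median log2 ratio of genes under 600 bases was -0.34 for WT-RANKL-Ab over WT-Control and -0.33 for Cd40-/- Control over WT-Control, against 0.11 and 0.13 for genes of 1000 bases or more. For Cd40-/- RANKL-Ab over WT-Control it was -0.13, against 0.079. In tuft cells, genes under 600 bases had -0.79, -0.30 and -0.51 for these pairs, so that as a whole they were lower in Cd40-/- RANKL-Ab than in WT-Control. For Cd40-/- RANKL-Ab over Cd40-/- Control their median was 0.24 in members and 0.16 in tuft cells. Genes of 1000 bases or more had -0.051 and 0.041 there. The part of this library difference in the results below was not tested, and results that moved when genes under 1000 bases were left out are given both ways.

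The first question was how many members each group held. There were 1937 members in WT-Control against 1457 members in WT-RANKL-Ab, with 862 members in Cd40-/- Control against 453 members in Cd40-/- RANKL-Ab. As a share of all kept cells these were 18.96% (18.2 to 19.7) in WT-Control against 20.3% (19.4 to 21.3) in WT-RANKL-Ab, with 10.03% (9.41 to 10.7) in Cd40-/- Control against 21.8% (20.002 to 23.6) in Cd40-/- RANKL-Ab. By this rule the share was lowest in Cd40-/- Control and between 18.96% and 21.8% in the other libraries. It was highest in Cd40-/- RANKL-Ab, whose interval overlaps that of WT-RANKL-Ab. Against WT-Control, the log2 ratio of the share was 0.10 for WT-RANKL-Ab, -0.92 for Cd40-/- Control and 0.20 for Cd40-/- RANKL-Ab, all read against the same control library. The sign depends on the rule for the antibody groups: with fewer than 2 progenitor genes in place of fewer than 3, the shares were 13.2, 11.9, 5.31 and 7.40% and the log2 ratio was -0.16 for WT-RANKL-Ab and -0.84 for Cd40-/- RANKL-Ab. On cells thinned to 2000 UMIs, with shallower cells left out of members and kept cells alike, it was 0.28 for WT-RANKL-Ab and 0.78 for Cd40-/- RANKL-Ab, and with a Ccl21a minimum of 200 per 10000 0.26 and 0.40, with a share of 6.31% in Cd40-/- Control. The size of these ratios thus depends on the settings. Cells that pass the Ccl21a minimum and the limits on the other rule genes, called Ccl21a-high cells, were 29.1%, 43.5%, 17.7% and 32.7% of kept cells, and members were 65.04%, 46.8%, 56.6% and 66.5% of them. Within Ccl21a-high cells members were thus scarcest in WT-RANKL-Ab, where the log2 ratio to WT-Control was -0.48. Ccl21a-high cells with neither Mgp nor Gpx3 numbered 345, 837, 153 and 58, or 11.6%, 26.9%, 10.05% and 8.52% of Ccl21a-high cells, and were most frequent in WT-RANKL-Ab. Cells with 1 of the genes split unevenly: 501, 414, 468 and 134 had Mgp alone and 195, 408, 40 and 36 had Gpx3 alone, so that in WT-RANKL-Ab the counts were nearly equal and in Cd40-/- Control Mgp alone prevailed.

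**Figure D1:**
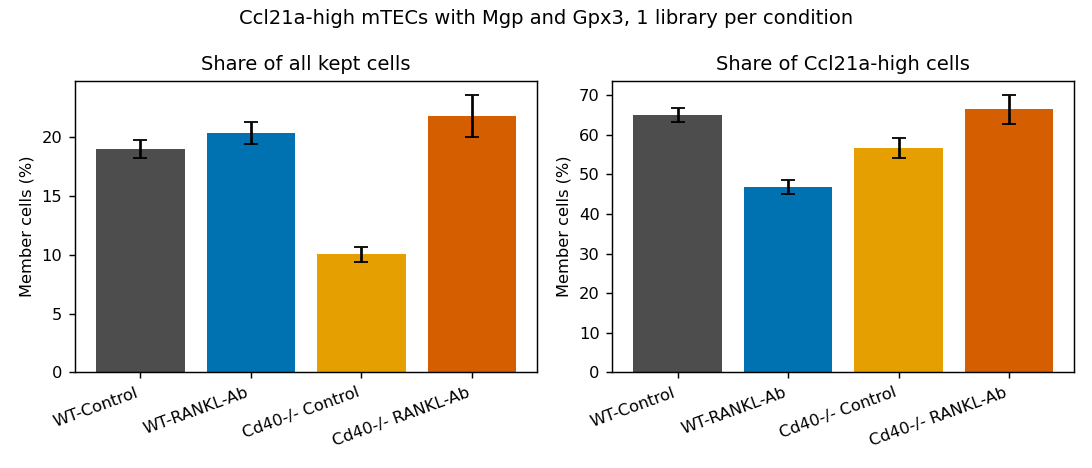
Share of members among all kept cells (left) and among Ccl21a-high cells (right) in percent, 1 bar per library with exact 95% intervals. Among all kept cells Cd40-/- Control is lowest at 10.03%, and among Ccl21a-high cells WT-RANKL-Ab is lowest at 46.8%.

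The thresholds pass through dense parts of the data in some places and thin parts in others. Members with 100 to 110 Ccl21a UMIs per 10000 numbered 21, 6, 25 and 2, and cells with 90 to 100 that met every other condition 22, 4, 23 and 0. The Ccl21a minimum therefore had few cells on either side. Exactly 1 UMI of Mgp was found in 192, 197, 58 and 28 members and exactly 1 UMI of Gpx3 in 328, 199, 203 and 57, and 1 UMI of each in 77, 63, 36 and 7. Members with 2 detected progenitor genes, the most allowed, numbered 588, 608, 406 and 299, and 144, 150, 154 and 223 cells fell outside with 3. Cd40-/- RANKL-Ab is the library in which the progenitor limit lay closest to the members, with 299 of 453 members just inside it. Of these genes, Gas1 was at 275, 309, 391 and 322 CPM in members. All other kept cells had it at 43.9, 182, 80.9 and 288 CPM, less in each library. Dcn was higher in members in all libraries but WT-RANKL-Ab, and Ackr4, Gpm6b, Prelp and Serpinf1 were lower in every library. The rule limited these genes in members, so that this is a description only.

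The genes that chose or mark the members were at these levels. Ccl21a (ENSMUSG00000094686, chr4:42772860-42773993, minus strand in GENCODE M21 on GRCm38) was at 27520 CPM in WT-Control against 31629 CPM in WT-RANKL-Ab, with 23548 CPM in Cd40-/- Control against 41358 CPM in Cd40-/- RANKL-Ab. Nearly all of these UMIs fell on 1 of its near-identical copies in the annotation, but reads cannot always tell the copies apart, so that the copy is uncertain. Mgp (ENSMUSG00000030218, chr6:136872435-136875823, minus strand) was at 1923 CPM in WT-Control against 1548 CPM in WT-RANKL-Ab, with 2654 CPM in Cd40-/- Control against 2058 CPM in Cd40-/- RANKL-Ab, highest in Cd40-/- Control and lowest in WT-RANKL-Ab. Gpx3 (ENSMUSG00000018339, chr11:54902453-54910377, plus strand) was at 1499 CPM in WT-Control against 1865 CPM in WT-RANKL-Ab, with 1060 CPM in Cd40-/- Control against 1748 CPM in Cd40-/- RANKL-Ab, lowest in Cd40-/- Control and highest in WT-RANKL-Ab. Per cell, the median member held 9, 7, 11 and 10 UMIs of Mgp and 6, 8, 4 and 7 of Gpx3, and the interquartile range in WT-Control members was 4 to 18 and 2 to 14. Ccl21a took 2.75, 3.16, 2.35 and 4.14% of all member UMIs.

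Apoe and Igfbp2 mark the cells but were not used to choose them. Apoe (ENSMUSG00000002985, chr7:19696109-19699188, minus strand), which encodes the lipid carrier apolipoprotein E, was in members at 3397 CPM in WT-Control against 2899.9 CPM in WT-RANKL-Ab, with 4565 CPM in Cd40-/- Control against 3339 CPM in Cd40-/- RANKL-Ab, and in Ccl21a-high cells with neither gene at 868, 381, 1064 and 436 CPM. It was higher in members in each of the 4 libraries. Igfbp2 (ENSMUSG00000039323, chr1:72824503-72852474, plus strand), which encodes a binding protein of insulin-like growth factors, was in members at 104 CPM in WT-Control against 217 CPM in WT-RANKL-Ab, with 184 CPM in Cd40-/- Control against 268 CPM in Cd40-/- RANKL-Ab, and in the cells with neither gene at 22.5, 24.5, 39.9 and 56.8 CPM. Both genes were past the fold in all 4 libraries. Free RNA in droplets was gauged on tuft cells, with cells thinned to 2000 UMIs, those below it left out, and median depths before thinning of 7797, 6404, 6512 and 7108 UMIs in tuft cells. Mgp, which the rule required in members, was then found in 84.8, 81.6, 91.9 and 86.3% of members and 10.02, 8.27, 9.12 and 18.8% of tuft cells, and Gpx3, also required, in 78.8, 83.2, 75.1 and 80.1% and 15.3, 9.22, 8.21 and 8.70%. Apoe, detected in 89.4, 86.04, 94.9 and 90.97% of members and 59.6, 37.003, 58.5 and 40% of the cells with neither gene, was above tuft cells (23.7, 15.9, 21.9 and 30.4%) in members of every library. Ccl21a was found in 44.8, 42.6, 33.7 and 44.9% of tuft cells, so that a UMI of it alone says little.

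Keratins gave a check of the medullary label. Krt14, a basal and medullary keratin, was at 2343, 2892, 2078 and 3244 CPM in members and at 486, 1146, 425 and 1191 CPM in all other kept cells. Krt5, its partner, was at 1565, 1830.3, 1373 and 1444 CPM against 325, 973, 286 and 698 CPM, also higher in members of every library. Krt8, a keratin found in most cortical and in many medullary cells, was at 1327, 1347, 1299.9 and 1628 CPM in members against 1639.7, 2159, 1681 and 2588 CPM. The epithelial adhesion gene Epcam was at 1053, 852, 1034 and 814 CPM against 795, 686, 618 and 459 CPM, and Foxn1, the factor that drives thymic epithelial identity, at 31.3, 48.7, 26.4 and 50.9 CPM against 52.9, 68.4, 59.8 and 103 CPM. Krt18, the partner of Krt8, was at 1875, 1722, 1701 and 1942 CPM against 1444, 2615, 1716 and 4059 CPM, higher in members of WT-Control and otherwise lower, and Krt19 at 22.6, 4.94, 20.7 and 17.1 CPM against 79.6, 75.3, 39.6 and 60.5 CPM, lower in members of every library. Members thus had more Krt14, Krt5 and Epcam RNA and less Krt8 and Foxn1 RNA than the other kept cells. Over 21 epithelial identity genes, 20 of which could be measured in Cd40-/- RANKL-Ab over WT-Control, the median log2 ratio between libraries was -0.0044, -0.028, 0.050 and 0.069 for WT-RANKL-Ab over WT-Control, Cd40-/- Control over WT-Control, Cd40-/- RANKL-Ab over WT-Control and Cd40-/- RANKL-Ab over Cd40-/- Control, an order kept for all lists below and called pairs A to D, and over the alternatives the median ran from -0.099 to 0.0041 for A (sign flips), -0.15 to 0.073 for B (sign flips) and -0.045 to 0.13 for C (sign flips). Over all genes measured it was 0.078, 0.080, 0.060 and -0.028. Krt15, a keratin of basal cells, stood out in this list at 15.2, 2.76, 81.3 and 14.7 CPM, high in Cd40-/- Control.

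Marker lists of other cell types were summed in members. The 10 thymocyte genes came to 24.6, 49.7, 34.2 and 53.2 CPM, led by Trbc2, with 1 gene at 0 in WT-RANKL-Ab, against 3967, 6397, 6006 and 6338 CPM in cells with over 10 UMIs of T cell genes. The rule limited Trbc2, Lck, Cd3d, Cd3e and Cd3g of this list in members. The cells set beside them were chosen for T cell genes, so that the thymocyte sums are a description only. The 6 macrophage and dendritic cell genes came to 56.2, 14.3, 75.2 and 2.60 CPM, led by Lyz2, with 1, 1, 2 and 3 genes at 0. Tuft cells held 274, 99.1, 344 and 55.5 CPM of the same genes, so that these UMIs were high in WT-Control and Cd40-/- Control in both cell types. The 6 fibroblast genes came to 13.2, 8.93, 44.1 and 42.5 CPM, led by Col3a1 or, in WT-RANKL-Ab, Lum. The 4 endothelial genes came to 1.81, 0.855, 1.85 and 10.7 CPM, led by Pecam1, with 1, 2, 2 and 0 genes at 0. The 4 parathyroid genes summed to 8.90, 2.28, 6.46 and 6.36 CPM, led by Chga or, in Cd40-/- Control, Pth. The myeloid, fibroblast, endothelial and parathyroid sums were small beside Mgp, which the rule required in members, so that this too is a description only. The myeloid sum was the only one of them past 50 CPM in a control library. The 3 mesothelial genes came to 104, 59.95, 9.24 and 11.9 CPM, nearly all from Msln, with Wt1 at 0 in every library. The 5 tuft genes came to 109.8, 162, 93.6 and 112 CPM, mostly Dclk1, against 1487, 2551, 1793 and 2463 CPM in tuft cells. The 6 mural and smooth muscle genes were the exception at 2838, 3852, 2938 and 4561 CPM, led by Acta2, against 410.5, 824, 502 and 1369 CPM in tuft cells. Pdgfrb, a receptor that defines mural cells, was at 0.765, 0, 0.739 and 0.289 CPM and Cspg4 at 0.557, 0.285, 0.369 and 1.45 CPM, near 0 beside Acta2. Tagln and Rgs5 belong to the same list and went the other way. Their levels, given below, lay far above Pdgfrb and Cspg4 in every library. The part of other cells in the members was not tested.

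Members were set beside Ccl21a-high cells with neither gene within each library, a contrast the rule itself made. A gene was past the fold where the log2 ratio of CPM, with 10 CPM added to both levels, was at least 1. Of 12831 genes with at least 50 UMIs, 42 (0.327%) were higher in members past the fold in all 4 libraries and 17 (0.132%) were lower. By the mean of each cell's CPM 23 were higher, and with 1 CPM added 128 were higher and 81 lower, while 27 were lower with the rule on thinned cells. The counts thus rest on the settings. Mgp and Gpx3 are among the former by construction. Bcam, which encodes a laminin receptor on basal cells, was at 97.6, 126, 112 and 265 CPM in members and 20.4, 19.9, 15.1 and 23.2 CPM in the cells with neither gene. Serping1, the inhibitor of the complement protease C1, was at 48.7, 58.1, 66.3 and 69.4 CPM against 6.63, 4.59, 4.13 and 0 CPM. Hpgd, the enzyme that inactivates prostaglandins, was at 653, 521, 955 and 421 CPM against 159, 159, 301 and 129 CPM. Each of these was higher in members of every library, as were Cpne8, Plscr2, Scn7a, Anxa8 and Tinagl1, the latter at 45.6, 79.2, 81.5 and 138 CPM against 8.67, 8.80, 15.1 and 33.6 CPM. Among the lower genes, Wfdc18, which encodes a secreted protein with a whey acidic protein domain, was the most abundant at 4717, 2145, 5043 and 1863 CPM in members and 12488, 8686, 18887 and 7262 CPM in the others. Nkx6-2, a homeobox factor, was at 10.9, 7.98, 6.83 and 7.52 CPM against 52.6, 150.2, 79.8 and 194 CPM. Pvalb, a calcium-binding protein gene, was at 34.6, 42.6, 28.3 and 27.8 CPM against 120.4, 223, 290.5 and 155 CPM. These and Tmprss4, Mfng, Bok, Calml4, Dmpk, Cdhr1, Skint10, Matn1 and Cbfa2t3 were lower in members of all 4 libraries.

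**Figure D2:**
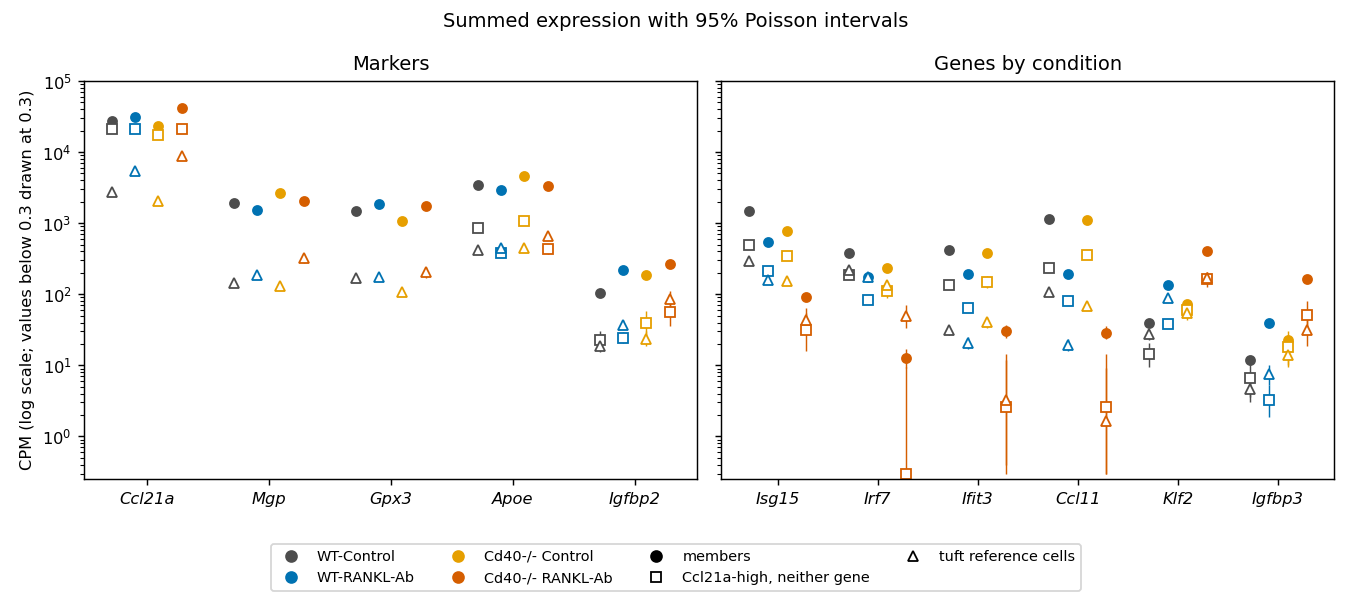
Summed expression in CPM on a log axis with 95% Poisson intervals for the 5 markers (left) and 6 genes that differ between libraries (right), in members (filled circles), Ccl21a-high cells with neither gene (squares) and tuft cells (triangles). Isg15 in members runs from 1483 CPM in WT-Control to 90.2 CPM in Cd40-/- RANKL-Ab.

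The gene lists describe this contrast by function. Of the cortical genes 0 of 12 were lower past the fold in members in all 4 libraries, against 0.132% of all genes. By single library 0, 3, 4 and 8 of 12 were lower and 1, 1, 0 and 0 higher. No share over all genes is given for single libraries, and in Cd40-/- RANKL-Ab the cells with neither gene numbered 58. The median log2 ratio of 0.44, -0.33, -0.40 and -1.24 was above 0 in WT-Control alone. Of the complement genes, 4 of 9 were higher in members past the fold in all 4 libraries, with a median log2 ratio of 0.36, 0.50, 0.70 and 1.11. Complement components and regulators such as C3 and C1s1 act in the fluid phase outside the cell. C3 was at 449, 230.2, 426 and 304 CPM in members against 171, 82.3, 165 and 111 CPM, and C1s1 at 119.6, 135, 199 and 180.1 CPM against 35.2, 39.2, 56.4 and 59.4 CPM. Of the matrix genes 3 of 29 were higher, with medians of 0.30, 0.37, 0.42 and 0.45, Mgp itself included. Sparc, which encodes a collagen-binding matrix protein, was at 270.4, 377, 600.3 and 907 CPM against 39.3, 33.3, 164 and 307 CPM. It was higher in members in each library, and Col6a1, a collagen VI chain, was at 283, 285, 507 and 294 CPM against 111, 178, 235 and 149.7 CPM. Of the genes of the insulin-like growth factor axis 2 of 10 were higher, of the BMP and TGF-beta genes 2 of 20, of the immediate early genes 1 of 16, of the lipid genes 1 of 15, of the antioxidant genes 1 of 25, Gpx3 itself, and of the progenitor surface genes 1 of 11. Of the Aire+ mTEC genes 2 of 10 were lower, with medians of -0.45, -0.75, -0.80 and -0.55. Tnfrsf11a, which encodes RANK, was at 68.2, 69.2, 51.5 and 51.5 CPM in members against 99.5, 91.8, 93.6 and 72.3 CPM, lower in each library though short of the fold. Interferon-stimulated genes had medians of 0.66, 0.54, 0.56 and 0.29 with 3 of 47 past the fold in all 4, and NF-kB genes -0.021, -0.14, -0.14 and -0.29 with 0 of 16. Medians over all genes in this contrast were 0.012, -0.012, 0.023 and 0. Krt17, a keratin, was lower in members (4607, 4594, 4038 and 4236 CPM) than in the cells with neither gene (7591, 7105, 6139.8 and 5902 CPM), and Krt14 was higher (2343, 2892, 2078 and 3244 CPM against 1419, 1931, 1155 and 1941 CPM).

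Cells with at least 3 of the progenitor genes, which the rule set aside, are described beside the members because they share Mgp and Gpx3 as a group. The same limits on cycling and T cell genes held for them, but no minimum of Ccl21a, Mgp or Gpx3 was set. They thus differ from members by more than the progenitor limit, and the part of the missing minima in the values below was not tested. There were 350, 883, 702 and 646 of them. They held Mgp at 2575, 1776, 1847 and 1648 CPM and Gpx3 at 1778, 824, 542 and 1185 CPM. Both lay above the members in WT-Control, Mgp also in WT-RANKL-Ab, and otherwise below them. Igfbp2 was at 389, 369, 285 and 371 CPM there, above the members in each library. Bcam was likewise above them, at 244, 298, 186 and 298 CPM. Fmod, which encodes the collagen-binding proteoglycan fibromodulin, was at 10.6, 26.3, 16.1 and 62.2 CPM in members and at 93.7, 101, 52.01 and 87.9 CPM in progenitor-gene cells. Igfbp7, of the same axis, was at 12.7, 15.4, 24.2 and 47.7 CPM against 202, 436, 345 and 232 CPM. Members were the lower of the pair for both genes in each library. Krt17 ran the other way, at 2652, 2136, 1676 and 2456 CPM in progenitor-gene cells and higher in members, and so did Wfdc18, at 1717, 493, 1220 and 523 CPM. For Igfbp2, Bcam, Krt17 and Wfdc18, members lay between the progenitor-gene cells and the Ccl21a-high cells with neither gene in each library. Dcn, a progenitor gene of the rule, was at 138, 268, 362 and 801 CPM in them and 1014, 1631, 981 and 1306 CPM in the cells set aside, with 34.8, 72.4, 79.03 and 248 CPM in tuft cells.

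Members varied among themselves in Mgp, and among the 1871, 1426, 811 and 432 members with at least 2000 UMIs the 25% of cells with the most Mgp per UMI in each library, the Mgp-rich members, were set beside the 25% with the least, the Mgp-poor members. The groups hold 468, 357, 203 and 108 cells each, and the lower limit of Mgp for Mgp-rich members was 27.9, 21.9, 39.2 and 30.8 UMIs per 10000. Median depth was 6966, 7075, 6850 and 8019.5 UMIs in Mgp-poor members and 6124, 6447, 5574 and 6928 in Mgp-rich members. The Mgp-rich were the shallower in each library. Of 11228 genes, 1426 were higher and 1944 lower in Mgp-rich members in all 4 libraries, whatever the size of the difference. Fmod was at 31.6, 62.7, 39.5 and 84.1 CPM in Mgp-rich and 0, 3.52, 1.33 and 19.98 CPM in Mgp-poor members. Serping1 was at 86.2, 107, 90.2 and 107 CPM against 30.5, 22.9, 33.2 and 26.97 CPM. Igfbp2 had log2 ratios of 2.55, 1.99, 1.57 and 1.17, and Gpx3, a gene of the rule, 2.22, 1.86, 1.69 and 1.31. These genes went with Mgp in every library. Wfdc18 ran against it, at 1978, 962, 2416 and 1404 CPM in Mgp-rich and 7069, 3663, 8929.7 and 3512 CPM in Mgp-poor members. Rgs5, a regulator of G protein signals, did so as well, with log2 ratios of -1.44, -2.03, -1.81 and -1.97. Complement genes were higher with Mgp in 6 of 8 cases, BMP and TGF-beta genes in 8 of 20 and matrix genes, with Mgp itself among them, in 7 of 28. Aire+ mTEC genes were lower in 6 of 10 and higher in 0. Interferon-stimulated genes did not go one way, with 4 of 47 higher and 6 lower.

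Pairs of libraries were then compared in members over all genes with at least 50 UMIs in the pair. The first 3 pairs share WT-Control, and the last shares its libraries with them, so that the counts are not independent of each other. For WT-RANKL-Ab over WT-Control, which bears on the antibody in wild-type mice, 21 of 11899 genes (0.176%) were higher past the fold and 144 (1.21%) lower. Without genes under 1000 bases, 82 were lower. For Cd40-/- Control over WT-Control, which bears on the Cd40 genotype, 75 of 11572 genes (0.648%) were higher past the fold and 88 (0.76%) lower. Here the split depends on the scaling, with 35 higher and 142 lower under TMM factors, and without genes under 1000 bases 49 were lower. For Cd40-/- RANKL-Ab over WT-Control, where both signals are reduced, 169 of 11331 genes (1.49%) were higher past the fold and 264 (2.33%) lower. For Cd40-/- RANKL-Ab over Cd40-/- Control, the antibody in Cd40-/- mice, 76 of 9876 genes (0.77%) were higher past the fold and 203 (2.06%) lower. With 1 CPM added in place of 10, 158, 361, 453 and 225 genes were higher and 506, 446, 772 and 398 lower in these pairs, and with a Ccl21a minimum of 200 per 10000 87 were lower for WT-RANKL-Ab over WT-Control and 172 for Cd40-/- RANKL-Ab over WT-Control. The pair with both signals reduced had the most genes past the fold in either direction, and in both antibody pairs more genes were lower than higher. Of 9720 genes, 28 were past the fold higher in members of both libraries with control IgG than of both with antibody, and 2 were lower. In tuft cells the same count was 163 of 7698 and in cells with over 10 UMIs of T cell genes 90 of 8462, so that genes low in the antibody libraries were found outside the members as well.

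Most interferon-stimulated genes were lower past the fold in Cd40-/- RANKL-Ab than in either control IgG library. Summed over 47 genes they were at 17058 CPM in WT-Control against 10213 CPM in WT-RANKL-Ab, with 12753 CPM in Cd40-/- Control against 4579 CPM in Cd40-/- RANKL-Ab in members. WT-Control was highest and Cd40-/- RANKL-Ab lowest, with Cd40-/- Control above WT-RANKL-Ab. Ifi27l2a, Isg15 and Bst2 of the list have longest transcripts of 463, 756 and 792 bases. Without genes under 1000 bases the remaining 44 summed to 9333, 6451, 8389 and 3437 CPM, with Cd40-/- Control nearer to WT-Control. The median log2 ratio was -0.51, -0.013, -1.38 and -1.54, beside 0.078, 0.080, 0.060 and -0.028 over all genes, and over the alternatives the median ran from -0.15 to 0.0042 for B (sign flips), while in the antibody pairs no alternative turned its sign. In Cd40-/- RANKL-Ab over WT-Control 34 of 47 were lower past the fold, in Cd40-/- RANKL-Ab over Cd40-/- Control 37 of 45, in WT-RANKL-Ab over WT-Control 8 of 47 and in Cd40-/- Control over WT-Control 0 of 47. None was higher past the fold in these 4 pairs. Isg15, which encodes a ubiquitin-like modifier, was at 1483 CPM (1463 to 1503) in WT-Control against 535 CPM (521 to 549) in WT-RANKL-Ab, with 776 CPM (752 to 799.6) in Cd40-/- Control against 90.2 CPM (80.5 to 101) in Cd40-/- RANKL-Ab. The log2 ratio without added CPM was -1.47 (95% interval -1.51 to -1.43) for WT-RANKL-Ab over WT-Control and -4.04 (95% interval -4.20 to -3.88) for Cd40-/- RANKL-Ab over WT-Control. Irf7, a transcription factor of the interferon response, was at 386, 175, 231 and 12.7 CPM. Ifit3, whose protein acts together with that of Ifit1, was at 421, 193, 379.9 and 30.1 CPM, though its near-identical copy Ifit3b makes the assignment of these UMIs uncertain. Both were lowest in Cd40-/- RANKL-Ab, with log2 ratios to WT-Control of -4.12 and -3.43. Ifi27l2a, the most abundant gene of the list, was at 5484, 2793, 3003 and 903 CPM. Bst2, the virion tether tetherin, was at 758, 435, 585 and 149 CPM, and Ly6e, a membrane-anchored restriction factor, at 2346, 2049, 1987 and 1408 CPM. Ly6e was the least different of these between libraries.

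Per cell, with cells thinned to 2000 UMIs, the median member had 13, 9, 12 and 4 of the 47 genes detected, Ccl21a-high cells with neither gene 8, 6, 9 and 4, progenitor-gene cells 11, 7, 10 and 5 and tuft cells 5, 4, 4 and 3. Members had more than tuft cells in every library, and the difference was smallest in Cd40-/- RANKL-Ab. Isg15 was detected in 83.4, 50.9, 65.2 and 10.6% of members and 26.4, 17.5, 16.4 and 7.25% of tuft cells, and in Cd40-/- RANKL-Ab the members lay close to the tuft cells. The sum of the list in tuft cells was 5343, 4738, 4549 and 2519.6 CPM and in cells with T cell genes 5044, 3370.2, 3848 and 3123 CPM. Those cells too had their lowest sum in Cd40-/- RANKL-Ab, and the part of free RNA in the difference between members of the libraries was not tested.

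The letters GAAA, any 2 bases (NN) and GAAA again, the core that STAT and IRF complexes bind in interferon-stimulated genes, were searched on both strands in the 250 bases before each gene's start, in RefSeq promoters on GRCm38.p6, whose starts can differ from the gene coordinates given elsewhere. They were found for 17 of 33 interferon-stimulated genes with an entry (51.5%), for 13 of the 25 past the fold in Cd40-/- RANKL-Ab over WT-Control and for 936 of 27025 genes in all (3.46%). Among genes measured in members the share was 322 of 9628 (3.34%). For 29 of 33 interferon-stimulated genes the window runs on into an annotated transcript of its strand. The match describes the sequence and shows no binding. To show what the shared letters look like, 90 bases are given 5′ to 3′ for 3 genes of the list that were lower in Cd40-/- RANKL-Ab. The motif on either strand is in capitals, and the position of the last capital base is counted from the RefSeq start, with each stretch running on past it. The stretches are Isg15 (chr4:156200835-156200924, minus strand, last capital base at -57), Ifit3 (chr19:34583367-34583456, plus strand, last capital base at -113) and Ifit1 (chr19:34640764-34640853, plus strand, last capital base at -76).
Isg15: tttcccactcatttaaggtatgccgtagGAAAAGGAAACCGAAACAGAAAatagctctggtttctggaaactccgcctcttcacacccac
Ifit3: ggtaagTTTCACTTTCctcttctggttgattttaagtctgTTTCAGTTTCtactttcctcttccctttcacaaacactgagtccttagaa
Ifit1: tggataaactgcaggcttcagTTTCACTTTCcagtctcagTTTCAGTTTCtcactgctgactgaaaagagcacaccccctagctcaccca

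Genes of antigen presentation differed by class. For MHC class I and its peptide loading, the median log2 ratio was -0.39, -0.17, -0.74 and -0.63, with 1, 0, 3 and 3 of 12 genes lower past the fold, and over the alternatives the median ran from -0.33 to -0.15 for B. B2m, the invariant light chain of class I, was at 12344, 6978, 10851 and 5113 CPM in members and at 9979, 5664, 7686 and 4667 CPM in tuft cells. It was low in both antibody libraries in both cell types, and the part of the library in this was not tested. H2-T23, a non-classical class I gene, was at 315, 119, 194 and 81.3 CPM. Psmb8, a subunit of the immunoproteasome that makes peptides for class I, was at 462, 260.05, 320.3 and 174 CPM. H2-K1 was at 3885, 3962, 4726 and 2668 CPM, and H2-Q7 at 1375, 1275, 1419.8 and 694 CPM. Cd40-/- RANKL-Ab was lowest for each of these 4 genes, and the H2 genes have near-identical copies, so that their single values are uncertain. H2-Q4 was at 249, 53.3, 65.4 and 76.3 CPM, high in WT-Control alone. For MHC class II, which presents peptides to CD4 T cells, the median was 0.0026, 0.058, -0.28 and -0.43 over 11 genes, with 0, 0, 2 and 2 lower past the fold, and over the alternatives the median ran from -0.093 to 0.079 for A (sign flips) and -0.035 to 0.15 for B (sign flips). Cd74, the invariant chain, was at 13008, 13095, 11392 and 10629 CPM, and H2-Ab1 at 6285, 6429.9, 6498 and 5162 CPM. These differed little between libraries. H2-Oa, which tempers class II loading, was at 169, 121, 142 and 58.1 CPM and the lysosomal protease gene Ctss at 82.6, 57.5, 72.6 and 14.2 CPM, with tuft cells at 98.2, 36.8, 93.8 and 11.4 CPM. Both were lowest in Cd40-/- RANKL-Ab.

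Among chemokines and other secreted genes, free RNA has to be read beside the members. The 11 chemokine genes had a median log2 ratio of -0.16, -0.16, 0.066 and -0.21, with 3, 2, 2 and 2 lower past the fold and 2 higher in Cd40-/- RANKL-Ab over WT-Control, and over the alternatives the median ran from -0.31 to 0.15 for B (sign flips), 0.032 to 0.30 for C and -0.28 to 0.50 for D (sign flips). Without genes under 1000 bases, the median for Cd40-/- Control over WT-Control was 0.15 and for Cd40-/- RANKL-Ab over WT-Control 0.20. Ccl11, an eosinophil chemokine that has no place in the list and was named for its ratio, was at 1149 CPM (1131 to 1166) in WT-Control against 193 CPM (185 to 202) in WT-RANKL-Ab, with 1103 CPM (1075 to 1131) in Cd40-/- Control against 28.9 CPM (23.5 to 35.2) in Cd40-/- RANKL-Ab. It was high in both control IgG libraries and low in both antibody libraries, with log2 ratios without added CPM of -2.57 (95% interval -2.64 to -2.50) for WT-RANKL-Ab over WT-Control and -5.25 (95% interval -5.55 to -4.97) for Cd40-/- RANKL-Ab over Cd40-/- Control. Tuft cells held it at 109, 19.3, 68.9 and 1.63 CPM, and after thinning 53.5, 12.1, 50.9 and 3.01% of members and 6.38, 1.11, 6.08 and 1.45% of tuft cells had a UMI. Members were above tuft cells in every library. Cxcl10, a chemokine induced by interferon, was at 696, 267, 457 and 357 CPM, and Cxcl9 at 94.8, 38.01, 43.96 and 2.60 CPM. Ccl19, the other ligand of CCR7, was at 230.5, 205, 130.03 and 242 CPM, lowest in Cd40-/- Control. Ccl20, which attracts cells that bear CCR6, was at 105, 2.95, 19.4 and 0.578 CPM, with a log2 ratio without added CPM of -7.50 (95% interval -10.55 to -5.64) for Cd40-/- RANKL-Ab over WT-Control. Tuft cells held Ccl20 at 48.2, 8.26, 59.5 and 0 CPM, also high in both control IgG libraries. Ccl5 was higher in tuft cells (431, 72.4, 100 and 6.53 CPM) than in members (131, 25.4, 53.2 and 11.6 CPM) in the first 3 libraries. Ccl25, which attracts early thymocytes in the cortex, was at 93.6, 131, 143 and 235 CPM in members and 315, 215, 401 and 689 CPM in tuft cells, and its share of thinned cells with a UMI, 6.41, 9.26, 14.8 and 12.7%, stands beside 10.02, 11.9, 12.2 and 23.2% in tuft cells. With the summed level lower in members in every library, no expression in members is read from it.

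Several of the genes with the lowest ratios in antibody libraries were more abundant in tuft cells than in members. Lyz1, a lysozyme gene, was at 99.8, 5.04, 62.4 and 0.578 CPM in members and 123, 27.3, 147 and 3.26 CPM in tuft cells. Csn2, a casein gene, was at 98.02, 10.2, 45.4 and 0.578 CPM against 405, 27.1, 360.2 and 0 CPM. S100a8, a calcium-binding protein gene of neutrophils, was at 59.2, 2.09, 15.9 and 0.867 CPM against 195, 24.97, 629 and 0 CPM. For these 3 the level was high in both control IgG libraries in both cell types. S100g was at 68.7, 3.52, 6.46 and 0.578 CPM in members, high in WT-Control alone, and at 204, 30.7, 100.3 and 0 CPM in tuft cells. For all 4 genes tuft cells had the more in the first 3 libraries, and the part of free RNA was not tested. Ccl8, a monocyte chemokine, was at 51.97, 9.12, 99.4 and 0.867 CPM against 39.1, 1.97, 58.5 and 0 CPM. Chil4, a chitinase-like gene, was above tuft cells (19.02, 0.393, 14.1 and 0 CPM) in members of the control libraries, at 35.4, 1.62, 229 and 0.867 CPM, and highest in Cd40-/- Control. Ttr, which encodes the thyroxine carrier transthyretin, was at 3.69, 0.855, 43.96 and 0.289 CPM against 6.57, 0.983, 29.2 and 1.63 CPM, and Bpifa1, an airway secretory gene, at 7.30, 3.52, 42.9 and 0.289 CPM against 98.2, 54.1, 43.7 and 0 CPM. Both were highest in members of Cd40-/- Control. AY036118, an unnamed transcript, was at 25.8, 49.6, 178 and 115 CPM, higher in both Cd40-/- libraries.

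Some genes were higher with the antibody in either genotype. Stmn2, a microtubule regulator best known from neurons, was at 98.8, 285, 27.9 and 164 CPM in members and at 22.997, 103, 12.99 and 57.1 CPM in tuft cells. Tppp3, a further microtubule protein gene, was at 28.4, 93.9, 20.5 and 72.6 CPM against 163, 227, 123 and 134 CPM. Pdzrn4, which encodes a PDZ and RING domain protein, was at 13.01, 54.4, 12.2 and 35.3 CPM. All 3 were higher in the antibody library of each genotype, in tuft cells as well, and past the fold in members in both antibody pairs. Lgi2, a secreted leucine-rich repeat gene, was at 5.08, 35.7, 4.99 and 7.81 CPM and so high in WT-RANKL-Ab alone. Msln, the mesothelin gene, was at 103, 59.95, 9.24 and 11.6 CPM, lower in both Cd40-/- libraries. Crip1, a zinc-binding LIM protein gene, was at 299, 176, 189 and 703 CPM. Its highest level was in Cd40-/- RANKL-Ab, and tuft cells had it at 1944, 2015, 1174 and 2838 CPM.

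The receptors include that of the antibody's target. The TNF receptor family and its adaptors had a median log2 ratio of -0.26, -0.12, -0.10 and -0.057, with 2, 1, 2 and 0 of 11 or fewer genes lower past the fold, none higher, and over the alternatives the median ran from -0.16 to 0.022 for D (sign flips). Cd40 belongs to the list, and the knocked-out gene is the gene lower past the fold in Cd40-/- Control over WT-Control and stands with Tnfrsf11b in Cd40-/- RANKL-Ab over WT-Control. The ratio of Tnfrsf11b there, -1.11, fell short of the fold under some alternatives, with -0.79 nearest to 0. Tnfrsf11a, the RANK gene, was at 68.2 CPM in WT-Control against 69.2 CPM in WT-RANKL-Ab, with 51.5 CPM in Cd40-/- Control against 51.5 CPM in Cd40-/- RANKL-Ab. Its level lay within a narrow range in the 4 libraries. Tnfrsf1a, a receptor of TNF, was at 107, 99.6, 97.3 and 98.6 CPM, and Tnfrsf12a, the receptor of TWEAK, at 47.2, 16.1, 64.1 and 59.6 CPM, low in WT-RANKL-Ab. Tnfrsf11b, which encodes the decoy receptor osteoprotegerin that binds RANKL, was at 15.9, 2.28, 13.3 and 2.02 CPM in members and 22.5, 1.97, 25.6 and 0 CPM in tuft cells. It was low in both antibody libraries in both cell types. NF-kB genes had a median of 0.079, 0.072, 0.0091 and 0.027, with 0 of 16 past the fold in any pair, and over the alternatives the median ran from -0.060 to 0.095 for B (sign flips), -0.093 to 0.19 for C (sign flips) and -0.11 to 0.14 for D (sign flips). Relb, the partner of p52 in the pathway downstream of RANK and CD40, was at 107, 157, 92.4 and 106 CPM. Nfkb1 was at 67.1, 77.2, 121 and 86.2 CPM and Nfkbia, the inhibitor that NF-kB itself induces, at 825, 899, 731 and 703 CPM. None of these reached the fold between libraries.

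Matrix genes had a median log2 ratio of 0.020, 0.43, 0.45 and 0.23, with 0, 5, 8 and 4 of 28 or fewer genes higher past the fold, 1, 0, 1 and 3 lower, and over the alternatives the median ran from -0.076 to 0.13 for A (sign flips). In members the 6 fibroblast genes came to 13.2, 8.93, 44.1 and 42.5 CPM and the progenitor gene Dcn was at 138, 268, 362 and 801 CPM, both higher in the Cd40-/- libraries, and their part in the matrix values was not tested. Sparc was at 270.4 CPM in WT-Control against 377 CPM in WT-RANKL-Ab, with 600.3 CPM in Cd40-/- Control against 907 CPM in Cd40-/- RANKL-Ab. Col12a1, a fibril-associated collagen, was at 48.2, 65.2, 108 and 207 CPM. Fn1, which encodes fibronectin, was at 16.1, 14.3, 54.5 and 125 CPM in members and 15.04, 12.2, 26.7 and 39.2 CPM in tuft cells. Cd40-/- RANKL-Ab was the highest and Cd40-/- Control the next for each of these. Fmod was at 10.6, 26.3, 16.1 and 62.2 CPM, and Pmp22, a membrane protein gene named for its ratio, at 8.97, 24.9, 29.9 and 68.8 CPM. Anxa8, an annexin gene, was at 40.1, 44.2, 67.05 and 191 CPM. In Cd40-/- Control Col6a1 (283, 285, 507 and 294 CPM) and Col6a2 (204, 170.1, 309 and 199 CPM) were highest. The genes of the insulin-like growth factor axis had a median of 0.35, 0.35, 0.52 and 0.54, with 2, 0, 3 and 1 of 10 higher and none lower past the fold, and over the alternatives the median ran from 0.29 to 0.80 for C. Igfbp3, a binding protein of the axis, was at 11.8 CPM (10.1 to 13.7) in WT-Control against 38.9 CPM (35.2 to 42.8) in WT-RANKL-Ab, with 22.7 CPM (18.9 to 27.1) in Cd40-/- Control against 166 CPM (153 to 180.4) in Cd40-/- RANKL-Ab. Its log2 ratio without added CPM was 3.82 (95% interval 3.57 to 4.08) for Cd40-/- RANKL-Ab over WT-Control and 2.87 (95% interval 2.59 to 3.16) for Cd40-/- RANKL-Ab over Cd40-/- Control. After thinning, Igfbp3 was found in 2.35, 6.45, 5.43 and 23.4% of members and 0.729, 0.636, 0.608 and 2.90% of tuft cells, with members of Cd40-/- RANKL-Ab far above the tuft cells. Igfbp2 was lowest in WT-Control, as given above. Igfbp5 was at 516, 1134, 853 and 466 CPM, highest in WT-RANKL-Ab and lowest in Cd40-/- RANKL-Ab, and Igfbp4 at 443, 412, 543 and 521 CPM, with little between libraries.

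Immediate early genes, which cells induce within minutes of a stimulus or of handling, had a median log2 ratio of -0.28, 0.44, 0.89 and 0.40, with 1, 1, 4 and 1 higher past the fold and none lower, and over the alternatives the median ran from 0.36 to 0.67 for B and 0.23 to 0.45 for D. Klf2, a zinc finger factor, was at 38.9 CPM (35.7 to 42.2) in WT-Control against 135 CPM (128 to 142) in WT-RANKL-Ab, with 71.8 CPM (64.9 to 79.4) in Cd40-/- Control against 405 CPM (384 to 426) in Cd40-/- RANKL-Ab in members. Tuft cells had 27.1, 89.5, 55.2 and 168 CPM and progenitor-gene cells 127, 181, 178 and 348 CPM, in the same order of libraries for the tuft cells. A UMI of Klf2 was found in 4.76, 13.9, 9.62 and 39.6% of thinned members and 4.74, 10.5, 6.69 and 18.8% of thinned tuft cells, so that members lay level with tuft cells in WT-Control and above them in Cd40-/- RANKL-Ab. Cyr61, a matrix-associated signalling protein gene, was at 258, 305, 549 and 661 CPM, and Klf6 at 320.1, 248, 509 and 684 CPM. Both were highest in Cd40-/- RANKL-Ab. The AP-1 genes had a median of -0.33, 0.17, 0.59 and 0.60, with 0, 0, 2 and 0 higher and 1, 0, 0 and 0 lower past the fold, and over the alternatives the median ran from 0.30 to 0.66 for D. Fos was at 486, 455, 692 and 1281 CPM in members and 393, 791, 606 and 831 CPM in tuft cells. Atf3 was at 109, 39.2, 132 and 205 CPM and Fosb at 37.6, 18.8, 74.1 and 118 CPM, each lowest in WT-RANKL-Ab and highest in Cd40-/- RANKL-Ab. Heat shock genes had a median of -0.10, 0.024, 0.14 and 0.19 with 1 of 10 higher past the fold in Cd40-/- RANKL-Ab over WT-Control, Hspa1b at 63.2, 48.8, 87.4 and 154 CPM, and over the alternatives the median ran from -0.19 to -0.092 for A, -0.14 to 0.051 for B (sign flips), 0.044 to 0.16 for C and 0.0037 to 0.25 for D. Rhob, a small GTPase gene also known as early responding, was at 34.6, 58.4, 64.6 and 183 CPM in members and 47.7, 106, 61.3 and 155 CPM in tuft cells.

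Genes of lipid metabolism had a median log2 ratio of -0.11, 0.066, -0.27 and -0.17, with 3, 1, 3 and 1 lower past the fold, 1 higher in Cd40-/- Control over WT-Control and 1 in Cd40-/- RANKL-Ab over WT-Control, and over the alternatives the median ran from -0.22 to 0.10 for A (sign flips), -0.013 to 0.42 for B (sign flips), -0.35 to 0.064 for C (sign flips) and -0.41 to -0.11 for D. Fdps, which makes farnesyl diphosphate and was named for its ratio, was at 31.8 CPM in WT-Control against 26.7 CPM in WT-RANKL-Ab, with 33.4 CPM in Cd40-/- Control against 163 CPM in Cd40-/- RANKL-Ab. Msmo1, a later step of cholesterol synthesis, was at 8.56, 13.6, 22.9 and 78.4 CPM. Both were highest in Cd40-/- RANKL-Ab, with tuft cells at 63.98, 41.3, 41.1 and 103 CPM and 24.6, 30.9, 28.5 and 57.1 CPM. Fabp5, a fatty acid binding protein gene, was at 1271, 812, 2014 and 623 CPM, lowest in Cd40-/- RANKL-Ab. Apoc1, an apolipoprotein gene, was at 140.1, 188, 117 and 147 CPM. The lower genes Apoa1 (26.2, 2.57, 5.73 and 0.289 CPM) and Ces1d (14.96, 0.475, 4.80 and 0.289 CPM) had low levels, and Apoa1 was more abundant in tuft cells of WT-Control and Cd40-/- Control (125, 0.590, 92.7 and 0 CPM). Antioxidant genes had a median of -0.11, 0.12, 0.15 and 0.080, with 0, 0, 2 and 1 higher and 3, 2, 2 and 0 lower past the fold of 25 or fewer, and over the alternatives the median ran from -0.051 to 0.19 for D (sign flips). Mt1, a metallothionein that binds zinc and copper, was at 274, 90.3, 362 and 617 CPM, low in WT-RANKL-Ab. Gstp1, a glutathione transferase, was at 54.9, 37.8, 82.6 and 185 CPM in members and 49.5, 38.7, 58.5 and 233 CPM in tuft cells. Gpx2, a glutathione peroxidase of epithelia, was at 45.1, 9.60, 20.3 and 8.10 CPM, and Gpx4, which reduces lipid peroxides, at 881, 667, 431 and 569.9 CPM. Gpx2 was highest in WT-Control.

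Several genes of cortical thymic epithelial cells were no more abundant in members than in tuft cells. The list had a median log2 ratio of 0.45, 0.56, 0.79 and 0.40, with 3, 3, 5 and 1 of 11 or fewer genes higher past the fold and 1 lower in WT-RANKL-Ab over WT-Control. The median depends on the settings: over the alternatives the median ran from 0.48 to 1.30 for C and -0.035 to 0.49 for D (sign flips). Summed over 12 genes the list was at 3697, 4934, 5214 and 5738 CPM in members, 1579, 2264, 3159 and 6097 CPM in tuft cells and 20406, 33715, 33597 and 35315 CPM in cells with T cell genes, with Ctsl the most abundant in members and no gene at 0. Psmb11, which encodes the thymoproteasome subunit of the cortex, was at 5.84, 37.2, 27.9 and 112 CPM in members and 23.2, 50.9, 94.6 and 318 CPM in tuft cells. Its share of thinned cells with a UMI was 1.23, 4.07, 3.21 and 5.79% in members and 1.64, 5.09, 5.17 and 17.4% in tuft cells, and with members below tuft cells no expression in members is read from it. Prss16, a cortical serine protease gene, was at 44.9, 101, 114 and 196 CPM against 58.4, 123, 321 and 317 CPM. Tbata, also high in the cortex, was at 189, 439, 494 and 695 CPM against 552, 679, 1112 and 1823 CPM. All 3 were lowest in WT-Control in both cell types. Ctsl, a lysosomal protease gene, was above tuft cells, at 2876, 3666, 3799 and 3819 CPM against 521, 983, 947 and 2432 CPM, and so was Il7, the interleukin that thymocyte precursors need, at 212, 321, 276 and 296 CPM against 45.8, 102, 67.1 and 228 CPM. Cxcl12, a chemokine for immature thymocytes, was at 92.9, 162, 163 and 230.5 CPM against 21.96, 63.3, 108 and 178 CPM.

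Aire+ mTEC genes had a median log2 ratio of -0.19, -0.42, -0.43 and -0.42, with 2, 1, 3 and 2 of 10 or fewer genes lower past the fold and none higher. Summed over 10 genes they were at 853, 835, 666 and 535 CPM in members, led by Hes6 with no gene at 0, and at 1733, 743, 1337 and 698 CPM in tuft cells. Aire, which drives self-antigen expression, was at 34.8, 3.90, 14.8 and 0.867 CPM in members and 129.5, 10.6, 131 and 17.95 CPM in tuft cells, and thinned members had a UMI in 4.76, 0.491, 1.11 and 0% against 10.7, 1.75, 8.21 and 1.45%, from which no expression in members is read. Cd52, a surface glycoprotein gene, was likewise lower in members (117, 12.2, 39.3 and 4.63 CPM) than in tuft cells (640.3, 69.01, 385 and 3.26 CPM) in all libraries but Cd40-/- RANKL-Ab. The list therefore says little of the members by way of Aire and Cd52. Fezf2, a factor that drives a further set of self antigens, was at 168, 209.6, 114 and 143 CPM, and Ciita, the factor that switches on MHC class II, at 77.8, 78.01, 89.03 and 63.6 CPM. Utf1 was at 26.2, 16.5, 12.7 and 2.02 CPM, lowest in Cd40-/- RANKL-Ab. Surface genes used for progenitors of the epithelium had a median of -0.12, 0.24, 0.081 and 0.040, with 1 higher and 1 lower past the fold in Cd40-/- RANKL-Ab over WT-Control and in Cd40-/- RANKL-Ab over Cd40-/- Control, and over the alternatives the median ran from -0.22 to -0.064 for A, 0.082 to 0.27 for B, -0.010 to 0.16 for C (sign flips) and -0.0024 to 0.10 for D (sign flips). Of these genes, Ly6a (Sca-1, also raised by interferon) was at 2123, 1325, 2438 and 360.3 CPM, lowest in Cd40-/- RANKL-Ab. Pdpn, which encodes podoplanin, was at 72.1, 93.3, 89.03 and 194 CPM, highest there. Sox4, a transcription factor, was at 842, 935, 425 and 671 CPM, lowest in Cd40-/- Control.

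Of the signalling lists, BMP and TGF-beta genes had a median log2 ratio of -0.048, 0.14, 0.13 and -0.11, with 1 higher and 2 lower past the fold in Cd40-/- RANKL-Ab over WT-Control, 2 lower in Cd40-/- RANKL-Ab over Cd40-/- Control, and over the alternatives the median ran from -0.12 to 0.021 for A (sign flips). Id1, a target of BMP signals that holds back bHLH factors, was at 465 CPM in WT-Control against 477 CPM in WT-RANKL-Ab, with 470.4 CPM in Cd40-/- Control against 117 CPM in Cd40-/- RANKL-Ab. Id3 was at 623, 511, 677 and 271 CPM and Id2 at 416, 467, 440.1 and 239.99 CPM. All 3 were lowest in Cd40-/- RANKL-Ab and near each other in the other libraries, with log2 ratios for Cd40-/- RANKL-Ab over WT-Control of -1.91, -1.17 and -0.77. Fst, which encodes the activin binder follistatin, was at 159, 80.6, 189 and 216 CPM. Wnt genes had a median of 0.15, 0.39, 0.28 and -0.043, with 2 lower in Cd40-/- Control over WT-Control, 1 lower in Cd40-/- RANKL-Ab over WT-Control and 1 higher in Cd40-/- RANKL-Ab over Cd40-/- Control, and over the alternatives the median ran from -0.11 to 0.10 for D (sign flips). Wnt4, a ligand that supports Foxn1, was at 195, 149.8, 79.1 and 171 CPM, lowest in Cd40-/- Control, and Kremen2, a receptor of Dkk inhibitors, at 33.7, 55.2, 11.8 and 7.81 CPM, low in both Cd40-/- libraries. Sfrp1, a secreted inhibitor of Wnt, was at 312, 525, 613 and 395 CPM. Notch genes had a median of 0.20, -0.098, -0.30 and -0.072, with 2 higher past the fold in Cd40-/- RANKL-Ab over WT-Control and 1 in Cd40-/- RANKL-Ab over Cd40-/- Control, and over the alternatives the median ran from -0.24 to 0.015 for B (sign flips) and -0.14 to 0.095 for D (sign flips). Notch2 was at 51.6, 37.7, 52.5 and 119 CPM and the ligand gene Dll1 at 7.24, 11.3, 19.6 and 30.4 CPM, both highest in Cd40-/- RANKL-Ab. Notch2 is among the genes past the fold in Cd40-/- RANKL-Ab over WT-Control, at 1.07. It fell short of the fold under some alternatives, with 0.82 nearest to 0. Complement genes had a median of 0.032, 0.26, 0.19 and -0.039 with 0 of 8 past the fold in Cd40-/- RANKL-Ab over WT-Control, and over the alternatives the median ran from -0.022 to 0.12 for A (sign flips), -0.085 to 0.39 for B (sign flips), -0.079 to 0.42 for C (sign flips) and -0.34 to 0.012 for D (sign flips).

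Contractile genes had a median log2 ratio of 0.25, 0.036, 0.34 and 0.36, with 1 of 11 higher past the fold in Cd40-/- RANKL-Ab over WT-Control, and over the alternatives the median ran from -0.11 to 0.099 for B (sign flips) and 0.31 to 0.55 for D. Acta2, the smooth muscle actin gene, was at 1175, 1993, 1531 and 2575 CPM in members and 129.9, 348, 169.97 and 698 CPM in tuft cells, and Tagln, an actin-binding protein gene, at 959, 1482, 1009.8 and 1853 CPM against 98.4, 309, 89.1 and 583 CPM. Both were higher in the antibody libraries of either genotype, in both cell types. Rgs5 was at 641 CPM in WT-Control against 278 CPM in WT-RANKL-Ab, with 332 CPM in Cd40-/- Control against 69.1 CPM in Cd40-/- RANKL-Ab in members, against 1317, 586, 1196 and 287 CPM in Ccl21a-high cells with neither gene and 144, 119, 183 and 45.7 CPM in tuft cells. It was lowest in Cd40-/- RANKL-Ab in all 3 cell groups. G1 cyclins, inhibitors and S phase genes had a median of 0.032, -0.061, -0.011 and -0.024, with 1 of 17 lower past the fold in Cd40-/- RANKL-Ab over WT-Control, 1 of 15 in Cd40-/- RANKL-Ab over Cd40-/- Control, and over the alternatives the median ran from -0.033 to 0.089 for A (sign flips), -0.16 to 0.028 for B (sign flips), -0.16 to 0.041 for C (sign flips) and -0.11 to 0.053 for D (sign flips). Ccnd2, a D-type cyclin gene, was at 241, 143, 164 and 65.1 CPM, lowest in Cd40-/- RANKL-Ab, and Ccnd1 at 107, 142, 66.5 and 63.9 CPM, lower in both Cd40-/- libraries. Rule genes and markers stand in some of these lists and counts: Ccl21a and Ackr4 among the chemokine genes, Mgp in matrix, Gpx3 in antioxidant, Apoe in lipid and Igfbp2 in the insulin-like growth factor axis. The rule genes Trbc2, Lck, Cd3d, Cd3e and Cd3g stand in the thymocyte list. As a description, the 5 markers had a median of 0.20, 0.43, 0.22 and 0.52 and the rule genes measured 0.040, 0.21, 0.22 and 0.20. Lists of other cell types, none past 5 measured genes, had too few measured genes for a median to mean much: thymocyte 0.44, 0.093, 0.36 and 0.46 over 2 or fewer genes, mural 0.62, 0.055, 0.48 and 0.37 over 4, tuft -0.13, -0.55, -0.49 and 0.016 over 5 or fewer, fibroblast -0.20, 0.82, 0.73 and -0.085 over 2, myeloid -0.93, 0.23, -1.39 and -2.69 over 3 or fewer and mesothelial -0.69, -2.56, -2.39 and 0.17 over 1. The myeloid median was low in the antibody pairs, as was that of the interferon-stimulated genes, and its part in them was not tested.

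**Figure D3:**
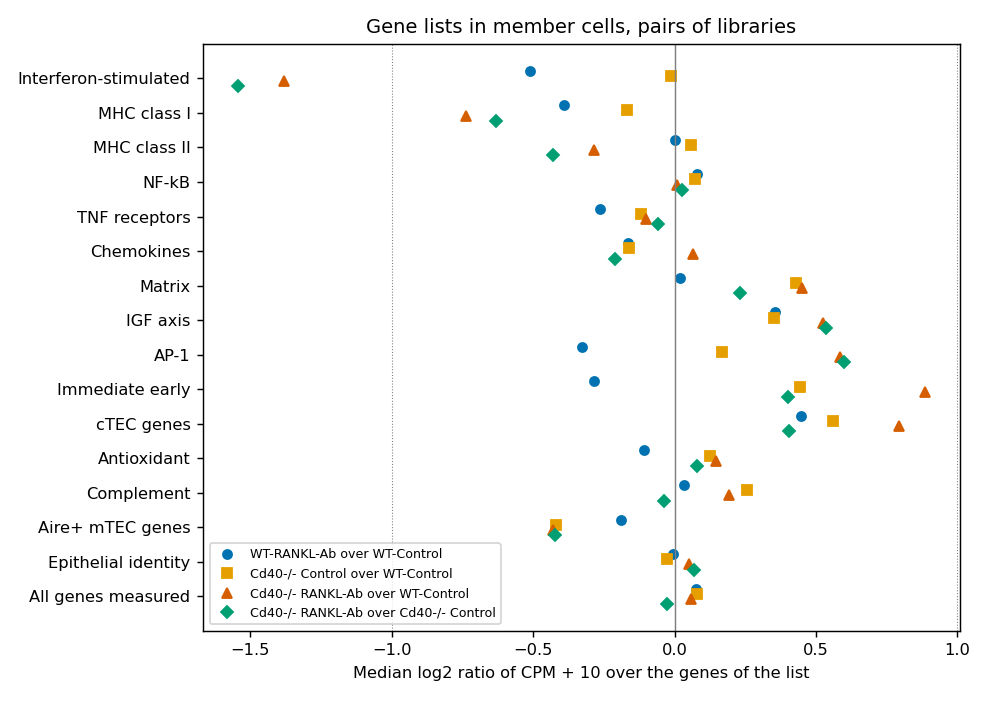
Median log2 ratio of CPM + 10 in members for the gene lists shown and all genes measured, 1 point per pair of libraries. Interferon-stimulated genes lie lowest at -1.38 for Cd40-/- RANKL-Ab over WT-Control and -1.54 for Cd40-/- RANKL-Ab over Cd40-/- Control, and dotted lines mark log2 ratios of -1 and 1.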

How the data were processed

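The deposited values are whole UMI counts per gene and called cell, made by the authors with Fastp, mapping to mm10 and Cell Ranger 5.0.1 per the file headers (5.1 per the labels); the paper names the v3.1 kit and the labels v2. Rows of 1 symbol were summed. Members, and other cells, were chosen by the rule given above, and their UMIs were summed per library and scaled to CPM. Ratios used 10 added CPM and genes with at least 50 UMIs in the pair. The medians by transcript length were the exception and used genes with at least 200 UMIs. Members and gene lists were chosen with earlier results of these data known. Named genes were those of the rule and markers, and in each list the 4 most abundant and the 3 with the largest ratio in Cd40-/- RANKL-Ab over WT-Control. Per pair, the 6 (10 for Cd40-/- RANKL-Ab over WT-Control) with the largest ratio each way were named, and 12 each way against the cells with neither gene. Ribosomal, mitochondrial and unnamed genes were left out, except that the unnamed transcript AY036118 stayed in. Cd40 was named as the knocked-out gene, and Rps29, Rpl36 and Cox17 and some list genes were chosen after their values were seen. Some items withheld for evaluation are not reported here. Alternatives covered the scaling, the added CPM, the minimum UMIs, the depth and limits of the rule. Those on short transcripts, and those on shared barcodes and fewer than 2 progenitor genes other than for the share of members, were chosen after seeing the data. The tools were R 4.3.3 with edgeR 4.0.16 for TMM, and Python 3.11.15 with pandas 2.3.3, scipy 1.17.1, numpy 2.4.6 and, for plots, matplotlib 3.10.9. The code was checked on simulated data.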

Additional observations from a re-analysis of the deposited data

Results flagged for a closer look

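For a named gene, Uqcr11, the antibody pairs of the genotypes lay past the fold in opposite directions. It encodes a subunit of respiratory complex III and had a log2 ratio of -1.32 for WT-RANKL-Ab over WT-Control and 1.27 for Cd40-/- RANKL-Ab over Cd40-/- Control, from levels of 343, 132, 95.3 and 245 CPM in members and 563, 238, 171 and 429 CPM in tuft cells. The difference between the genotypes was not tested, since each condition has 1 library. The rule was narrowed to named genes past the fold in opposite directions in both pairs, because a difference in sign alone could not be tested with 1 library each. Uqcr11 is low in WT-RANKL-Ab and Cd40-/- Control in tuft cells too, as is Rpl36 described above, and the part of the libraries in this was not tested.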

How the results depend on the processing

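With 1 library per condition, an alternative is called near the value reported when it moved by less than the 95% counting interval, when a count stayed within the allowed factor, or, for a list, when its median moved by less than the median half-width of the intervals of its genes. By this, 11 of 32 alternatives were near for the shares, 12 of 24 for ratios of shares with 3 of opposite sign, 110 of 130 for counts of genes, 1208 of 1291 for list medians and 2166 of 2570 for named genes, where no called value took the opposite sign. For named genes only Cd40-/- RANKL-Ab over WT-Control was run. There 151 of 204 genes moved under at least 1 alternative, and 74 moved over 1.5 times. Genes moved most often with fewer than 2 progenitor genes (74 genes), the rule on thinned cells (60) and TMM factors (58). Of 83 genes past the fold, 17 fell short of it under some alternative. These were Acta2 (0.92), Apoa1 (-0.62), Ccl25 (0.73), Ces1d (-0.78), Cldn3 (-0.69), Cpne8 (0.93), Cxcl12 (0.99), Fabp5 (-0.91), Gng13 (-0.76), Igfbp7 (0.99), Klf6 (0.92), Notch2 (0.82), Scn7a (0.84), Tbata (0.88), Tnfrsf11b (-0.79), Tppp3 (0.52) and Utf1 (-0.96), each with the value nearest to 0. The shares, counts and list medians that moved follow by setting, the cause was not tested, and pairs A to D stand for WT-RANKL-Ab over WT-Control, Cd40-/- Control over WT-Control, Cd40-/- RANKL-Ab over WT-Control and Cd40-/- RANKL-Ab over Cd40-/- Control. With a Ccl21a minimum of 50, the share of members was 20.03% for WT-Control and 11.1% for Cd40-/- Control. With a Ccl21a minimum of 200 per 10000, the share of members was 15.003% for WT-Control, 17.98% for WT-RANKL-Ab, 6.31% for Cd40-/- Control and 19.8% for Cd40-/- RANKL-Ab, its log2 ratio was 0.26 for pair A, -1.25 for pair B and 0.40 for pair C and the genes past the fold were 87 lower in pair A and 172 lower in pair C. List medians were then, in pair A, 0.10 for lipid genes and 0.18 for contractile genes, in pair B, 0.73 for cortical genes, 0.42 for lipid genes, -0.085 for complement genes and 0.13 for tuft genes, in pair C, 0.064 for lipid genes, in pair D, 0.23 for cortical genes and 0.12 for chemokines. With at least 2 UMIs of Mgp and of Gpx3, the share of members was 14.6% for WT-Control, 15.7% for WT-RANKL-Ab, 7.41% for Cd40-/- Control and 18.01% for Cd40-/- RANKL-Ab and the genes past the fold were 29 lower against the cells with neither gene. Medians of lists were then, in pair C, 0.48 for cortical genes, in pair D, 0.11 for cortical genes. With the rule on cells thinned to 2000 UMIs and shallower cells left out of members and kept cells, the share of members was 16.5% for WT-Control and 28.4% for Cd40-/- RANKL-Ab, its log2 ratio was 0.28 for pair A, -0.67 for pair B and 0.78 for pair C and the genes past the fold were 27 lower against the cells with neither gene. List medians were then, in pair A, 0.61 for cortical genes and 0.52 for mural genes, in pair B, 0.72 for cortical genes, -0.057 for heat shock genes and 0.32 for lipid genes, in pair C, 0.22 for chemokines, 0.68 for immediate early genes and 0.044 for heat shock genes, in pair D, 0.060 for cortical genes and 0.22 for chemokines. Over Ccl21a-high cells as the denominator, the share of members was 65.04% for WT-Control, 46.8% for WT-RANKL-Ab, 56.6% for Cd40-/- Control and 66.5% for Cd40-/- RANKL-Ab and its log2 ratio was -0.48 for pair A (sign reversed), -0.20 for pair B and 0.032 for pair C. With fewer than 2 progenitor genes, the share of members was 13.2% for WT-Control, 11.9% for WT-RANKL-Ab, 5.31% for Cd40-/- Control and 7.40% for Cd40-/- RANKL-Ab and its log2 ratio was -0.16 for pair A (sign reversed), -1.31 for pair B and -0.84 for pair C (sign reversed). List medians were then, in pair A, 0.78 for mural genes, in pair B, 0.75 for cortical genes, 0.33 for lipid genes and 0.14 for mural genes, in pair C, 1.12 for cortical genes, 0.29 for IGF axis genes and -0.079 for complement genes, in pair D, 0.19 for cortical genes, 0.19 for chemokines, -0.44 for MHC class I genes, -1.24 for interferon-stimulated genes, 0.42 for AP-1 genes, 0.080 for heat shock genes, -0.34 for complement genes and 0.55 for contractile genes. Without cells that share a barcode, the share of members was 23.6% for Cd40-/- RANKL-Ab. Medians of lists were then, in pair C, 0.56 for cortical genes, in pair D, 0.17 for cortical genes. Under TMM factors, the genes past the fold were 35 higher and 142 lower in pair B. List medians were then, in pair A, -0.22 for progenitor surface genes, -0.093 for MHC class II genes, -0.47 for MHC class I genes, -0.19 for heat shock genes and 0.52 for mural genes, in pair B, 0.082 for progenitor surface genes, 0.41 for cortical genes, -0.31 for chemokines, -0.035 for MHC class II genes, -0.33 for MHC class I genes, -0.15 for interferon-stimulated genes, -0.14 for heat shock genes, -0.11 for contractile genes and -0.097 for mural genes, in pair C, 0.25 for contractile genes. By the mean of each cell's CPM, the genes past the fold were 23 higher against the cells with neither gene. Medians of lists were then, in pair A, 0.079 for MHC class II genes and -0.48 for MHC class I genes, in pair C, 0.30 for chemokines and 0.80 for IGF axis genes, in pair D, 0.25 for cortical genes, 0.089 for chemokines, 0.30 for AP-1 genes, 0.23 for immediate early genes, 0.0037 for heat shock genes and -0.41 for lipid genes. With 1 CPM added in place of 10, the genes past the fold were 158 higher and 506 lower in pair A, 361 higher and 446 lower in pair B, 453 higher and 772 lower in pair C, 225 higher and 398 lower in pair D and 128 higher and 81 lower against the cells with neither gene. List medians were then, in pair A, 0.60 for cortical genes, -0.49 for MHC class I genes and 0.34 for contractile genes, in pair B, 0.81 for cortical genes and 0.67 for immediate early genes, in pair C, 1.30 for cortical genes, -1.78 for interferon-stimulated genes, 0.76 for AP-1 genes and 0.42 for complement genes, in pair D, -1.86 for interferon-stimulated genes. For genes with at least 200 UMIs, list medians were, in pair B, 0.75 for cortical genes, in pair C, 1.22 for cortical genes and 0.20 for chemokines, in pair D, 0.50 for chemokines. Without the 5% of members with the most UMIs, the genes past the fold were 27 lower against the cells with neither gene. Medians of lists were then, in pair B, 0.75 for cortical genes and 0.15 for MHC class II genes, in pair C, 0.76 for IGF axis genes, in pair D, -0.035 for cortical genes. Without genes under 1000 bases, the genes past the fold were 82 lower in pair A and 49 lower in pair B. List medians were then, in pair B, 0.15 for chemokines, in pair C, 0.20 for chemokines. No paired analysis was possible because each library pools different mice. Depth limits what the smaller groups can show: Cd40-/- RANKL-Ab has 453 members and 58 Ccl21a-high cells with neither gene, and genes of a few CPM rest on few UMIs there. Free RNA was not removed from the counts, and tuft cells stand in as its gauge although they may express some of the genes themselves. Groups and libraries cannot be told apart with 1 pool per condition.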

Other observations

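Members had 2.59, 2.78, 3.44 and 2.47% mitochondrial UMIs at the median, against 2.32, 2.82, 2.88 and 2.57% in all kept cells. The second annotated copy of Ccl21a held 2 member UMIs in WT-Control, 2 in WT-RANKL-Ab and 0 in the Cd40-/- libraries, and Ccl21c held 123, 82, 24 and 67.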
